A study of Mus musculus with 12 samples.

Results

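The enteroendocrine genes described here are the colon's hormone genes and the factors that mark the cells making them. They are Chga and Chgb, which encode the granule proteins chromogranin A and B; Gcg, Pyy and Insl5, the peptide hormones of colonic L cells; Tph1, the enzyme that starts serotonin synthesis in enterochromaffin cells; Neurod1, a transcription factor of enteroendocrine differentiation; and Sct, Sst and Cck, which encode secretin, somatostatin and cholecystokinin. Members were taken by symbol: a probe set counted if its annotated gene symbol was exactly one of these names. All 10 were measured, each by 1 probe set, among 21314 genes in all.

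RNA of the whole colon came from mice of 6 to 8 weeks, kept in a conventional facility free of common mouse pathogens, and was hybridised to Affymetrix arrays. The 4 groups held 3 mice each: wild type on plain drinking water, wild type given dextran sulfate sodium (DSS) at 4% over 7 days, Parp1-/- on plain water, and Parp1-/- given the same DSS course. DSS is a polysaccharide that injures the colonic epithelium and is used to induce colitis in mice, and Parp1 encodes poly(ADP-ribose) polymerase 1, an enzyme that responds to DNA strand breaks. The study asked how the colon transcriptome differs between the genotypes with and without this injury. Strain, sex and the nature of the Parp1-/- allele were not given in the sources used here. Every sample was washed whole colon, with epithelium, muscle and nerve together.

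Enteroendocrine cells are scattered single cells of the gut epithelium. They arise from crypt progenitors through a cascade of basic helix-loop-helix factors, in which Neurog3 acts upstream of Neurod1, and they store hormone in dense-core granules built with chromogranins. In the colon the main types are enterochromaffin cells, which make serotonin with Tph1, and L cells, which process proglucagon to GLP-1 and GLP-2 and co-secrete PYY and, in the distal colon, INSL5.

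The promoters of the members that the results turn on are shown first, with the letters marked that 2 kinds of regulator of hormone genes can bind. Neurod1 protein binds E-boxes (CANNTG), and cyclic AMP-responsive CREB proteins bind sites with the core TGACGT. Promoter windows ran from 250 bases before to 50 after each RefSeq start on GRCm38.p6, and all 10 members matched, with 13 windows between them. The windows shown lie at chr12:102554691-102554990 on the plus strand for Chga, at chr2:132781392-132781691 on the plus strand for Chgb, at chr2:79456587-79456886 on the minus strand for Neurod1, at chr4:103026679-103026978 on the minus strand for Insl5 and at chr16:23890795-23891094 on the minus strand for Sst. Each is written 5′ to 3′ along the gene, in lower case, with E-boxes and TGACGT in capitals on either strand.
Chga: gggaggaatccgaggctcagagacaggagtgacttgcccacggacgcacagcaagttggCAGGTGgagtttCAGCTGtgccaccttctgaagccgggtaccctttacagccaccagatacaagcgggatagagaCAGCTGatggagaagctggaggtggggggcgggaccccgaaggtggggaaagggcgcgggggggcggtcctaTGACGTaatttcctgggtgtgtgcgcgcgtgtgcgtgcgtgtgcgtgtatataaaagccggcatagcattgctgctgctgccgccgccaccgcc
Chgb: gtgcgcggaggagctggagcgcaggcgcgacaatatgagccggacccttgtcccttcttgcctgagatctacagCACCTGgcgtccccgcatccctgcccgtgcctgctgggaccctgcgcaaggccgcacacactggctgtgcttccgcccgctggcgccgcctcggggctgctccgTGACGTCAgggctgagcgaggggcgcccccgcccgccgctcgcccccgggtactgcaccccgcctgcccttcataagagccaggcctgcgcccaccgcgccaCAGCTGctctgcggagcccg
Neurod1: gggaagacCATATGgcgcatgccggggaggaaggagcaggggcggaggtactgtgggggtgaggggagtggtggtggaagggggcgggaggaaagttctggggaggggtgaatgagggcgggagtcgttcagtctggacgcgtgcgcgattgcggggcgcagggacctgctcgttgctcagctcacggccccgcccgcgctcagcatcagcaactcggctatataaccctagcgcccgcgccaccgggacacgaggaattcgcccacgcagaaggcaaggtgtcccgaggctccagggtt
Insl5: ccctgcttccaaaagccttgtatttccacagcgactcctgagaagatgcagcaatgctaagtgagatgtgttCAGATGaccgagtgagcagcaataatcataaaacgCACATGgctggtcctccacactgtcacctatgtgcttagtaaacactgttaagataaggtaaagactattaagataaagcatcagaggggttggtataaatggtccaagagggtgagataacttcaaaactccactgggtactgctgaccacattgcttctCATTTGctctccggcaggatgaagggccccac
Sst: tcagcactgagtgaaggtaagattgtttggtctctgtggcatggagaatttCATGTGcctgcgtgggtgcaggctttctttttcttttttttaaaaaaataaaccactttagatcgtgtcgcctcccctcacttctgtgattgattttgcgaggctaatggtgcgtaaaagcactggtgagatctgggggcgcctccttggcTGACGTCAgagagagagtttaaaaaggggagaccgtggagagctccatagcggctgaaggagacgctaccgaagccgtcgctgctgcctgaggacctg
The CRE core TGACGT was found in 3 of the 13 windows, those of Chga, Chgb and Sst, against 7.51% of all 32851 promoter windows of the same length. In Chgb and Sst the 2 matches are the opposite strands of 1 site and overlap. An E-box was found in 12 of the 13 windows, against 72.3% of all windows, so these letters are common everywhere. The letters TATAAA, those of the usual TATA box, stood in 5 of the 13 windows and in 13.6% of all. They were counted on either strand and at any position in the window. A match is only a match of letters in this window.

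The deposited values are relative. Each probe set had been centred so that its median over the 12 arrays was 0, and they were read here as log2 values in which a larger value means more RNA, since the table states neither. A value of 1 is then 2-fold above the gene's own median array, and no gene's level can be set against another's. For the same reason the labelled tissue could not be checked by the level of its markers.

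Before the members are described, some arrays need naming. The 3 wild-type water arrays and wild-type DSS 1 were low in housekeeping genes, with means of 14 such genes between -1.84 and -1.06 against -0.04 to 0.39 on the other 8. They were also low in the mean of 10 general epithelial genes, at -1.52 to -1.01 against -0.06 to 0.41, and their values spread more widely over all probe sets (SD 0.666 to 0.871 against 0.256 to 0.394). In wild-type DSS 1 both lists were split. Of the epithelial genes Cdh1 was at 0.90 and Krt18 at 0.28 there, but Cldn3 at -3.00 and Vil1 at -1.90. Of the housekeeping genes Ywhaz was at 0.70 there. Parp1-/- water 2, Parp1-/- water 3 and Parp1-/- DSS 1 were high in smooth muscle genes, with means of 10 genes between 3.01 and 3.08 against -0.53 to 0.07 elsewhere, and in the mean of 12 enteric neuron and glia genes, at 0.26 to 0.65 against -0.22 to 0.10. Not every gene of that list was high there. Vip was at 2.29, 1.88 and 1.44 in that order, Chat at -0.37, -0.25 and 0.06, and Gfap at -0.45, -0.08 and 0.02. Since every wild-type water array is in the first set, that feature and the group cannot be told apart. Parp1 averaged 0.43 in the 6 wild-type arrays, from -0.41 to 1.15, and -0.07 in the 6 labelled Parp1-/-, from -0.22 to 0.03. Parp1 exceeded every Parp1-/- value on 4 of them, while the array labelled wild-type water 1 lay below all Parp1-/- values, so its label is given as such in what follows. That array had the lowest housekeeping mean of the 12, -1.84, and in goblet cell genes it lay near the other wild-type water arrays (-1.50 against -1.59 and -1.78).

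**Figure D1:**
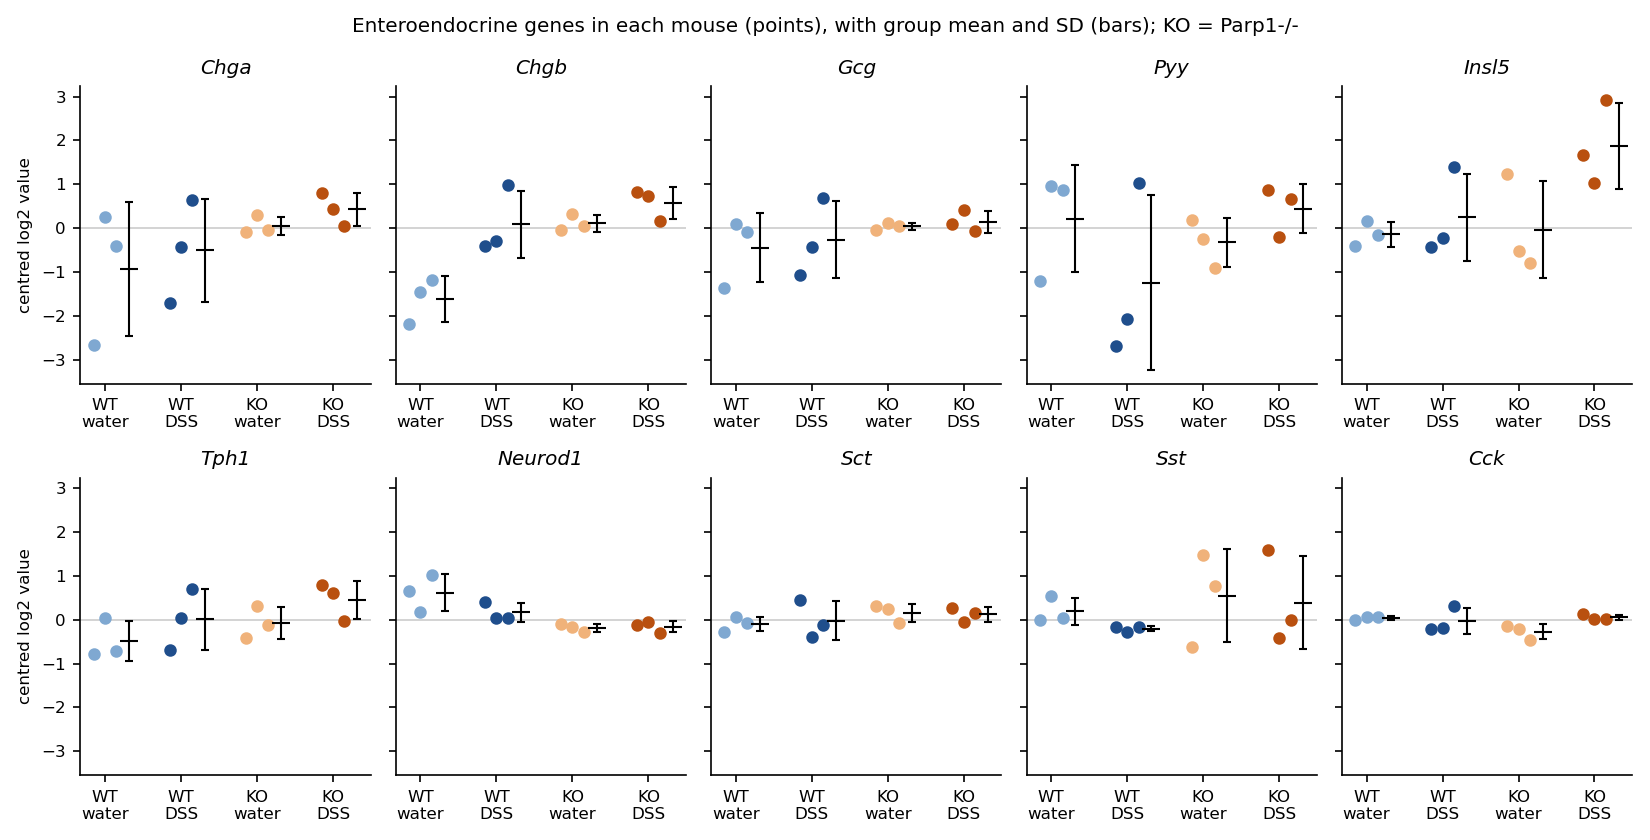
Centred log2 value (vertical axis, median of each gene over the 12 arrays at 0) of the 10 members in wild type (WT) and Parp1-/- (KO) mice on water or DSS; points are mice, and bars give the group mean and SD, n = 3. Chgb is low in all 3 wild-type water mice, Neurod1 has its highest group mean there, and the highest Insl5 value, 2.93, is in a Parp1-/- DSS mouse.

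Chgb was the member with the clearest change: the 3 wild-type water mice lay below every other mouse, and Chgb was 3.25-fold higher after DSS in wild type. In the array labelled wild-type water 1 Chgb was at -2.19, in wild-type water 2 at -1.45 and in wild-type water 3 at -1.19. The wild-type DSS mice were at -0.41, -0.29 and 0.97, the Parp1-/- water mice at -0.05, 0.33 and 0.05, and the Parp1-/- DSS mice at 0.82, 0.73 and 0.15. The wild-type groups on water and on DSS did not overlap, and neither did the water mice of the genotypes.

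In the fit of all genes with limma, the DSS difference of Chgb in wild type was 1.70 ± 0.37 (log2, SE, n = 3 against 3; 95% interval 0.89 to 2.51; Benjamini-Hochberg adjusted p 0.0125). On water Chgb was 3.29-fold higher in Parp1-/- than in wild type, by 1.72 ± 0.37 (interval 0.91 to 2.52, adjusted p 0.00698); both comparisons use the same wild-type water arrays. In Parp1-/- the DSS difference was 0.46 ± 0.37 (adjusted p 1.0), and between the genotypes on DSS it was 0.48 ± 0.37 (adjusted p 0.872). The DSS responses of the genotypes differed by -1.24 ± 0.52, an interval of -2.38 to -0.10, which did not pass over all genes (p 0.0356, adjusted p 0.249).

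Both Chgb calls involve arrays that stand apart. Chgb lay at -2.19 to -0.41 in the 4 arrays of low housekeeping genes and at -0.29 to 0.97 in the other 8, so all 4 were below all 8. Quantile normalization of the arrays took the DSS difference in wild type to 0.96 (adjusted p 0.250) and the genotype difference on water to 0.94 (adjusted p 0.112). Without the array labelled wild-type water 1, both calls held, at 1.41 (adjusted p 0.0444) and 1.43 (adjusted p 0.0264). Smaller fits lost calls with little change in size: without the 3 arrays of high smooth muscle genes, all Parp1-/-, the differences were 1.70 (adjusted p 0.0569) and 1.56 (adjusted p 0.288), and with only the wild-type arrays in the fit the DSS difference was 1.70 (adjusted p 0.0899). The part of the low housekeeping signal in these calls was not tested. In whole-colon RNA, fewer enteroendocrine cells and less RNA per cell cannot be told apart, for this and every other member.

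Chga, the other granin, did not pass in any comparison. It was at -2.65 in the array labelled wild-type water 1, at 0.25 in wild-type water 2 and at -0.41 in wild-type water 3. The wild-type DSS mice spread from -1.70 through -0.43 to 0.63, whereas the Parp1-/- mice were close together, at -0.09, 0.29 and -0.04 on water and 0.80, 0.45 and 0.04 on DSS. The wild-type groups overlapped with each other and with both Parp1-/- groups. The DSS difference in wild type was 0.43 ± 0.69 (adjusted p 0.705) and turned to -0.42 without the array labelled wild-type water 1. The genotype difference on water was 0.99 ± 0.69 (interval -0.52 to 2.50, adjusted p 0.267), and leaving out the array labelled wild-type water 1 brought it to 0.13. The first interval holds the size seen for Chgb, and a difference between the granins was not tested.

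**Figure D2:**
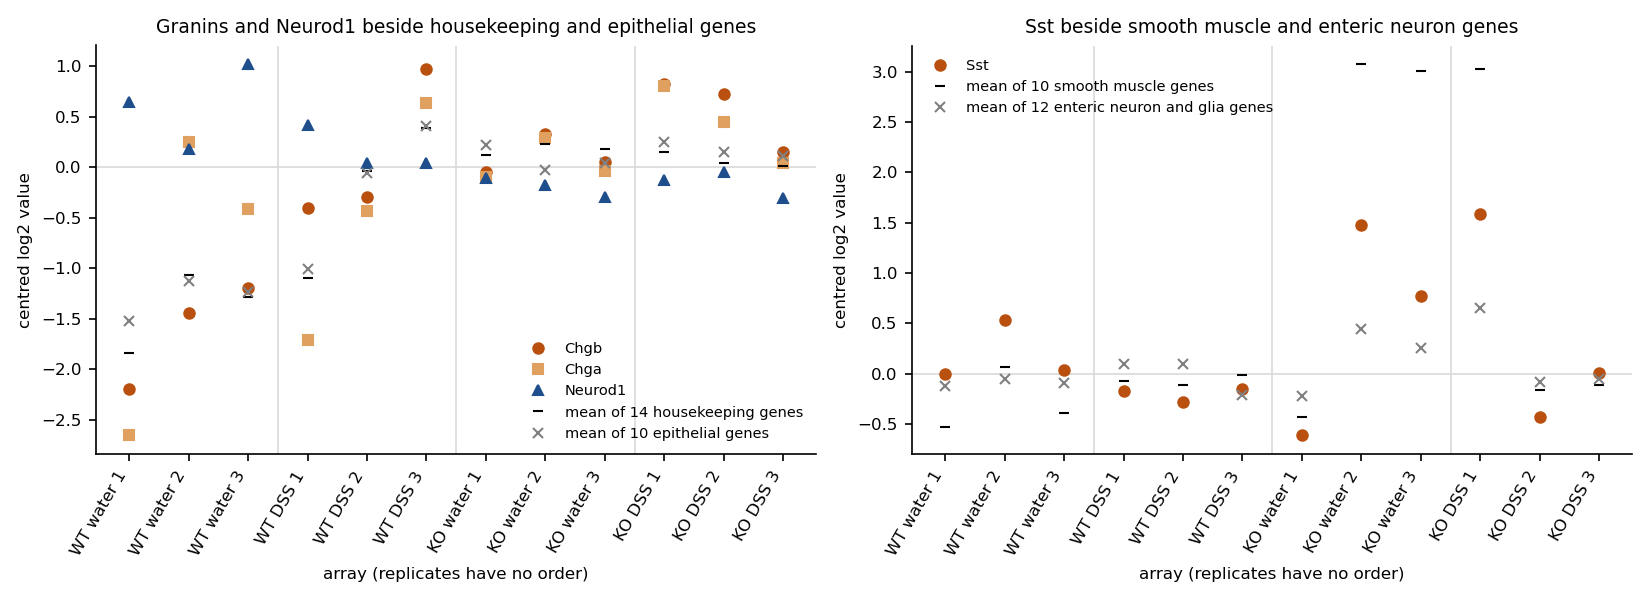
Left, centred log2 value of Chga, Chgb and Neurod1 on each array beside the mean of 14 housekeeping and 10 epithelial genes; right, Sst beside the mean of 10 smooth muscle and 12 enteric neuron and glia genes. Each point is 1 array (WT, wild type; KO, Parp1-/-). Chgb is low and Neurod1 high on the 4 arrays of low housekeeping genes, and Sst is above 0.77 on the 3 arrays of high smooth muscle genes and at most 0.53 on the others.

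Against all genes, the members' calls were no more frequent than the background in the comparisons with calls. In wild type 1 of the 10 members was called after DSS, Chgb, which was higher, where 13.0 percent of the 21314 genes were called (1894 higher and 887 lower). In the difference of DSS responses no member was called, where 2.54 percent of genes were. In Parp1-/- no member was called after DSS, where 0.00938 percent of genes were, that is 2 genes, and 1 member and 609 genes had an unadjusted p under 0.05. Between the genotypes on water 2 members were called, Chgb higher and Neurod1 lower, where 31.6 percent of genes were called (3813 higher and 2912 lower). On DSS no member and 0 percent of genes were called by limma, with 593 genes and 1 member at an unadjusted p under 0.05. The members' median log2 differences were 0.13 in wild type, 0.35 in Parp1-/-, 0.31 between genotypes on water and 0.46 on DSS, beside medians over all genes of -0.05, 0.01, -0.07 and 0.002. The members were above 0 in 6, 8, 7 and 9 of 10 cases in that order, beside 9756, 11312, 9915 and 10740 of the 21314 genes. All members share the same arrays, and between the genotypes on DSS the members' share rests on differences of which none passed. Leaving out a wild-type DSS mouse changed the count of genes called after DSS in wild type, to 6865 (mouse 1 left out), 1211 (mouse 2) or 1712 (mouse 3). The water genotype count was 2948 without Parp1-/- water 2 and 3029 without Parp1-/- water 3.

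The groups of Chgb and Sst did not overlap between DSS and water in wild type, Chgb higher and Sst lower, where 23.6 percent of genes did not overlap. In Parp1-/- only Cck of the 10 members did not overlap, higher on DSS, where 12.5 percent of genes did not. On water 3 members did not overlap between the genotypes, Chgb higher and Neurod1 and Cck lower in Parp1-/-, where 55.4 percent of genes did not. On DSS Neurod1 alone did not overlap, lower in Parp1-/-, where 6.55 percent of genes did not. With 1, 2 or 3 of 10 members, no such share stands out from its background.

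**Figure D3:**
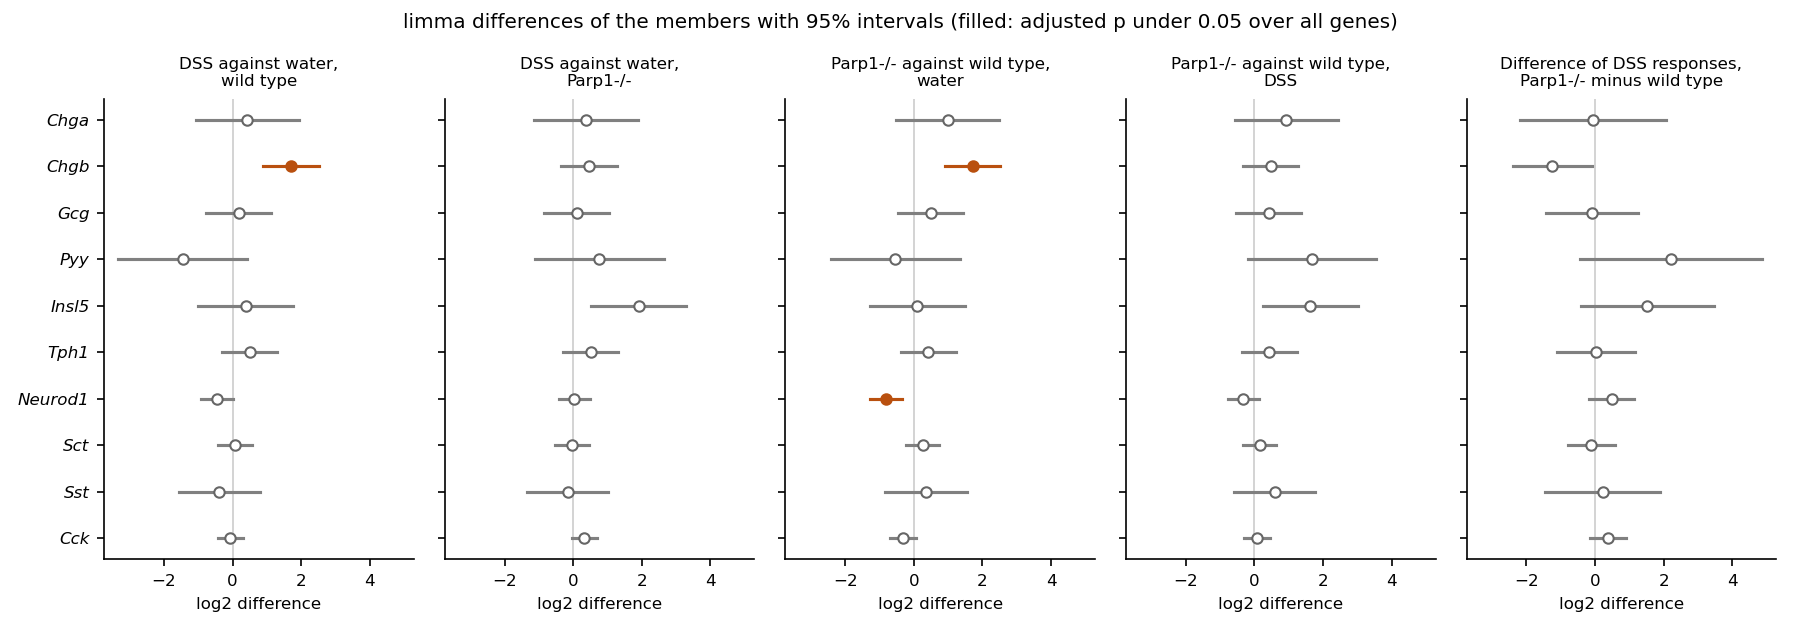
Log2 difference (horizontal axis) of each member in the 5 comparisons, fitted with limma over all 12 arrays; lines are 95% intervals, and filled points have an adjusted p under 0.05 over all genes. Only Chgb (1.70 and 1.72) and Neurod1 (-0.81) are filled, and the intervals of Pyy are the widest.

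Neurod1 ran the other way. This transcription factor, which acts after Neurog3 in enteroendocrine precursors, was 1.75-fold lower in Parp1-/- than in wild type on water. It was at 0.64 in the array labelled wild-type water 1, at 0.18 in wild-type water 2 and at 1.02 in wild-type water 3, and at 0.41, 0.05 and 0.04 in the wild-type DSS mice. The Parp1-/- mice were at -0.11, -0.17 and -0.29 on water and at -0.12, -0.04 and -0.30 on DSS. All 6 wild-type mice were thus above all 6 Parp1-/- mice, by a narrow gap (lowest wild type 0.043, highest Parp1-/- -0.043). How many of all genes separate the genotypes in this way was not counted. The difference on water was -0.81 ± 0.21 (interval -1.26 to -0.35, adjusted p 0.0162), on DSS it was -0.32 ± 0.21 (adjusted p 0.872), and DSS in wild type gave -0.45 ± 0.21 (interval -0.91 to 0.01, adjusted p 0.175).

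The Neurod1 call on water was near its limit. It was lost without Parp1-/- water 2 (-0.81, adjusted p 0.0547) and without Parp1-/- water 3 (-0.76, adjusted p 0.0656). The DSS difference in wild type passed without wild-type water 2 (-0.66, adjusted p 0.0432). A second probe set, annotated to both Neurod1 and Cerkl, differed by 0.21 on water (adjusted p 0.423 over all probe sets), the opposite sign. The 4 arrays of low housekeeping genes held the 4 highest values, 0.18 to 1.02, against -0.30 to 0.05 on the other 8, and the part of that feature was not tested. The gene of closest profile among 18060 named genes was Vmn2r69, a vomeronasal receptor gene, at a root-mean-square difference of 0.11 (log2) over the 12 arrays. It was followed by Fam205c, by Olfr1163, an olfactory receptor gene (0.12), and by Brd8dc and Aox3.

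The L-cell hormones did not share one pattern. Pyy, whose product slows gut transit and reduces appetite, was lowest in 2 of the 3 wild-type DSS mice, and Insl5 was high in the Parp1-/- DSS mice, while Gcg had the narrowest range of the 3. None of these differences passed over all genes.

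**Figure D4:**
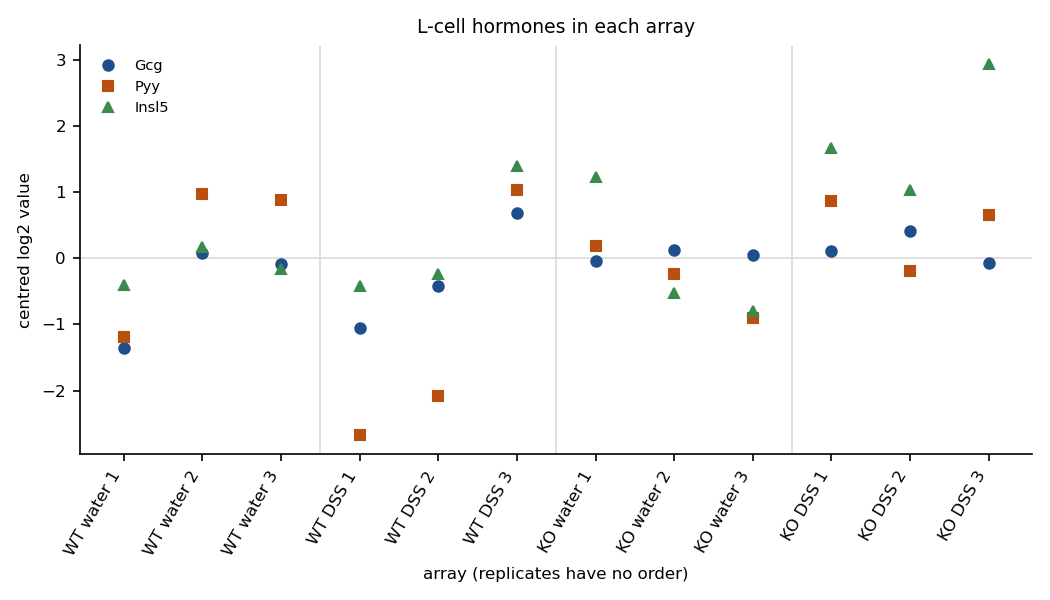
Centred log2 value of the L-cell hormone genes Gcg, Pyy and Insl5 on each of the 12 arrays (WT, wild type; KO, Parp1-/-). Pyy is at -2.67 and -2.08 in wild-type DSS 1 and 2 and at 1.03 in wild-type DSS 3, and Insl5 is at 1.02 to 2.93 in the 3 Parp1-/- DSS mice.

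Pyy was at -2.67, -2.08 and 1.03 in the wild-type DSS mice, so that group held both the lowest and the highest Pyy value of the series. It was at -1.20 in the array labelled wild-type water 1 and at 0.96 and 0.88 in wild-type water 2 and 3. In Parp1-/- it was at 0.19, -0.24 and -0.91 on water and at 0.86, -0.19 and 0.66 on DSS. All the groups overlapped. The DSS difference in wild type was -1.46 ± 0.85 (interval -3.33 to 0.42, adjusted p 0.273), and without wild-type DSS 3 it was -2.59 (adjusted p 0.0260). Epithelial genes in the wild-type DSS mice had means of -1.01, -0.06 and 0.41 in the same order, so wild-type DSS 3 was the highest in both. In the wild-type water mice those means were -1.52, -1.12 and -1.23, where Pyy was at -1.20, 0.96 and 0.88. A link of Pyy with epithelial genes was not tested. On DSS Pyy differed between the genotypes by 1.68 ± 0.85 (interval -0.19 to 3.56, adjusted p 0.872), and the DSS responses differed by 2.22 ± 1.21 (interval -0.43 to 4.87, adjusted p 0.361).

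Insl5 encodes the ligand of the receptor Rxfp4. It was at 1.67, 1.02 and 2.93 in the Parp1-/- DSS mice and at 1.23, -0.52 and -0.80 in the Parp1-/- water mice. In wild type it was at -0.42, -0.23 and 1.39 on DSS, at -0.40 in the array labelled wild-type water 1 and at 0.16 and -0.16 in wild-type water 2 and 3. Parp1-/- DSS mice held the highest 2 values of the series, but the groups overlapped through Parp1-/- water 1 and wild-type DSS 3. The DSS difference in Parp1-/- was 1.91 ± 0.63, that is 3.75-fold (interval 0.53 to 3.29, p 0.0110, adjusted p 1.0), and ranked 191 by p among the 21314 genes. It was 0.75 without the 3 arrays of high smooth muscle genes, which leaves 1 Parp1-/- water mouse. Against wild type on DSS the difference was 1.63 ± 0.63 (interval 0.25 to 3.01, p 0.0245, adjusted p 0.872), and the DSS responses differed by 1.53 ± 0.89 (adjusted p 0.390).

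Gcg, the proglucagon gene, lay close to 0 in every Parp1-/- mouse, at -0.04, 0.12 and 0.04 on water and at 0.11, 0.41 and -0.08 on DSS. In wild type it was at -1.35 in the array labelled wild-type water 1, at 0.09 and -0.08 in wild-type water 2 and 3, and at -1.06, -0.42 and 0.68 on DSS. The wild-type groups covered a wider range than the Parp1-/- groups and overlapped with them. The DSS difference in wild type was 0.18 ± 0.43 (interval -0.76 to 1.13, adjusted p 0.809), and it was -0.29 without wild-type DSS 3.

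The mean of 10 general epithelial genes of the same array was also subtracted from each member. Both were centred values, so the result compares arrays and does not set a gene's level against the epithelial genes. By this measure Insl5 averaged 1.71 in Parp1-/- DSS mice and -0.11 in Parp1-/- water mice (group means of log2 values). Insl5 averaged 1.16 and 0.47 in wild-type mice on water and on DSS. By the same measure Pyy averaged 1.51 in wild-type water, -1.02 in wild-type DSS, -0.40 in Parp1-/- water and 0.28 in Parp1-/- DSS. Gcg averaged 0.84 in wild-type water and -0.04, -0.03 and -0.02 in wild-type DSS, Parp1-/- water and Parp1-/- DSS. Neurod1 averaged 1.91, 0.39, -0.27 and -0.32 in that order. Chgb averaged -0.32, 0.31, 0.03 and 0.40, so its group means lay closer together by this measure than as deposited. So did those of Chga and Insl5. From lowest to highest, the group means of Gcg, Pyy, Neurod1, Sct, Sst and Cck lay further apart, and those of Tph1 changed little. The epithelial mean subtracted in wild-type water was -1.29, so every member was raised in that group. As deposited Gcg averaged -0.45 there, its lowest group mean. Tph1, Sct, Sst and Cck averaged 0.80, 1.19, 1.48 and 1.33 there after the subtraction. The values after subtraction describe the arrays and were not tested.

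Tph1, the first enzyme of serotonin synthesis outside the nervous system, did not pass in any comparison. It was at -0.79 in the array labelled wild-type water 1 and at 0.04 and -0.71 in wild-type water 2 and 3, and at -0.70, 0.03 and 0.70 on DSS. In Parp1-/- it was at -0.41, 0.32 and -0.11 on water and at 0.78, 0.60 and -0.03 on DSS. The groups overlapped in both genotypes. The DSS differences were 0.50 ± 0.37 in wild type (interval -0.31 to 1.30, adjusted p 0.387; 0.85 without wild-type DSS 1 and 0.15 without wild-type DSS 3) and 0.52 ± 0.37 in Parp1-/- (interval -0.29 to 1.32, adjusted p 1.0).

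Sst, the gene of the inhibitory peptide somatostatin, was highest on the arrays of high smooth muscle genes. It was at 1.48 in Parp1-/- water 2, at 0.77 in Parp1-/- water 3 and at 1.58 in Parp1-/- DSS 1, against -0.61 to 0.53 on the other 9. The 12 enteric neuron and glia genes had means of 0.44, 0.26 and 0.65 on those arrays in the same order. Within the Parp1-/- groups the remaining mice were at -0.61 on water and at -0.43 and 0.00 on DSS.

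In wild type Sst was close to 0 in the array labelled wild-type water 1, at 0.53 and 0.04 in wild-type water 2 and 3, and at -0.17, -0.28 and -0.16 on DSS. The genotype difference on water was 0.36 ± 0.54 (adjusted p 0.611) and -0.80 without the 3 arrays of high smooth muscle genes. On DSS it was 0.59 ± 0.54 (adjusted p 0.872) and -0.0097 without them, and DSS in Parp1-/- gave -0.16 ± 0.54 and 0.40 without them. The closest profile to Sst was that of Enah, an actin regulator (root-mean-square difference 0.22), followed by Pygm, the muscle glycogen phosphorylase, and then by Gpm6a, Tspan2 and Synm. Somatostatin is made by both D cells and enteric neurons, and their parts in this signal were not tested.

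Cck and Sct, whose hormones are made mainly in the small intestine, varied least. Over the 12 arrays Cck ran from -0.47 to 0.31 and Sct from -0.41 to 0.46. Cck was at -0.14, -0.21 and -0.47 in the Parp1-/- water mice and at 0.13, 0.01 and 0.02 in the Parp1-/- DSS mice, so those groups did not overlap. The DSS difference in Parp1-/- was 0.33 ± 0.17 (interval -0.04 to 0.70, adjusted p 1.0) and the genotype difference on water was -0.31 ± 0.17 (adjusted p 0.167). In wild type Cck was at -0.01, 0.06 and 0.06 on water and at -0.22, -0.18 and 0.31 on DSS. Sct was at -0.27, 0.06 and -0.08 and at 0.46, -0.41 and -0.13 in those groups, and at 0.30, 0.25 and -0.08 and at 0.27, -0.06 and 0.16 in Parp1-/- on water and on DSS. Every pair of Sct groups overlapped. The member differences not given one by one lay between -0.54 and 0.93, and the smallest adjusted p among them was 0.370.

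Few genes of the wider enteroendocrine programme passed. Of 13 further transcription factors of these cells that were measured, none passed for DSS in either genotype or between genotypes on DSS. On water, where 31.6 percent of all genes were called and 13.7 percent were lower, 3 of the 13 were lower in Parp1-/- and none higher: Isl1, a LIM homeodomain factor of hormone cells (-0.89 ± 0.28, adjusted p 0.0356), Lmx1a, a factor of enterochromaffin cells (-0.84 ± 0.21, adjusted p 0.0149), and Rfx6, which acts in gut endocrine development (-0.58 ± 0.15, adjusted p 0.0157). These 3 and Neurod1 share the wild-type water arrays. Lmx1a was at 0.82, 0.31 and 0.77 in the wild-type water mice and at 0.32 in wild-type DSS 1. On the other 8 arrays it was at most 0.26, so Lmx1a was highest on the 4 arrays of low housekeeping genes. The list's median difference there was -0.24, beside -0.07 over all genes, and -0.13 with equal array medians, so the share of the list called lower is not read as a result about these factors.

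Granule and processing genes were measured in 13 of 14 cases (not Pcsk2). Pam, the enzyme that amidates peptide hormones and is made in many cell types, was higher after DSS in wild type by 1.53 ± 0.35 (adjusted p 0.0171) and in Parp1-/- against wild type on water by 2.20 ± 0.35 (adjusted p 0.00173). Pam was at -2.46, -1.78 and -1.95 in the wild-type water mice and at -1.26 in wild-type DSS 1, and it lay between -0.67 and 0.72 on the other 8 arrays, so it was low on the same 4 arrays as Chgb. No other gene of the list passed in any comparison. Beside Pam as 1 of 13, 8.89 percent of all genes were called higher after DSS in wild type and 17.9 percent on water. On DSS all 13 lay above 0 in Parp1-/- against wild type, with a median of 0.32 and no call, where 10740 of the 21314 genes lay above 0. The means of the 13 genes were 0.64, 0.02 and 0.13 in the Parp1-/- DSS mice and -0.37, -0.13 and 0.23 in the wild-type DSS mice, so the groups overlapped, and the highest and lowest were Parp1-/- DSS 1 and wild-type DSS 1, which stand apart in muscle and housekeeping genes.

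Among 5 other gut peptide genes Tac1, which encodes substance P and is also made by enteric neurons, was higher after DSS in wild type by 1.73 ± 0.51 (adjusted p 0.0459). Its DSS difference in Parp1-/- was 1.54 (p 0.0108, adjusted p 1.0). Tac1 was at -1.38, -1.49 and -1.19 in the wild-type water mice, at -0.11, 0.28 and 0.94 in the wild-type DSS mice, at -0.99, 0.20 and -0.01 in the Parp1-/- water mice and at 1.52, 0.01 and 2.29 in the Parp1-/- DSS mice. The DSS and water mice did not overlap in wild type and overlapped in Parp1-/-. Nts, Gip, Ghrl and Gast did not pass in any comparison. Thus 1 of the 5 genes was called higher after DSS in wild type, where 8.89 percent of all genes were.

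Of 10 nutrient and metabolite sensors 2 were lower in Parp1-/- on water, the calcium-sensing receptor Casr (-0.45, adjusted p 0.0437) and the potassium channel subunit Abcc8 (-0.64, adjusted p 0.0471), and none passed elsewhere; 13.7 percent of all genes were lower there. Of 21 receptor and clearance genes 2 were higher and 1 lower in that comparison, against 17.9 and 13.7 percent of all genes. Dpp4, the protease that inactivates GLP-1, was higher by 1.68 ± 0.37 (adjusted p 0.00803), and the serotonin receptor Htr4 by 0.75 ± 0.21 (adjusted p 0.0218). Dpp4 was at -1.08, -1.49 and -1.19 in the wild-type water mice and at -1.22 in wild-type DSS 1. On the other 8 arrays Dpp4 lay between -0.30 and 0.72, so it was low on the 4 arrays of low housekeeping genes. Rxfp4, the receptor of INSL5, was lower (-0.88 ± 0.30, adjusted p 0.0447). It was at 1.24, -0.10 and 0.68 in the wild-type water mice against -0.09, -0.36 and -0.37, so the groups overlapped. No receptor or clearance gene passed in the other comparisons. Every call of these lists kept its direction under equal array medians and under quantile normalization. Only signs and sizes were compared under these scalings, not whether a call still passed. Quantile normalization made some smaller: Pam 0.57 after DSS in wild type and 1.29 on water, Dpp4 1.07 and Casr -0.28.

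Lists of other cell types moved in the same comparisons. General epithelial genes were called higher after DSS in wild type in 6 of 10 cases and in Parp1-/- on water in 7 of 10, and goblet cell genes in 5 and 7 of 7. Housekeeping genes were called higher in 8 and 12 of the 14 measured, of 18 listed. Of all genes 8.89 percent were called higher after DSS in wild type and 17.9 percent on water. In the neuron and glia list, Snap25 was higher by 1.85 (adjusted p 0.0220) after DSS in wild type and by 1.55 (adjusted p 0.0259) on water, where Chat was lower (-0.57, adjusted p 0.0323). Of 7 pancreas genes measured, of 9 listed, Iapp and G6pc2 were lower on water (-0.75 and -0.49), where 13.7 percent of all genes were. None of the 10 smooth muscle genes was called in any comparison, with medians of 2.70 on water and -1.15 for DSS in Parp1-/-. In the difference of DSS responses 4 epithelial, 4 goblet cell and 1 housekeeping gene were lower, where 2.33 percent of all genes were. The part of these shifts in the members' results was not tested.

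Profiles of the members were compared by the root-mean-square difference of centred log2 values over the 12 arrays, among 18060 named genes. The nearest to Chga were Asb13 (0.25), Zmpste24, Zfyve1, Hgs and Clstn1. Those of Gcg were Brpf1 (0.17), Angel2, Ephx2, Pigk and Heph, those of Pyy were Pllp (0.54), Cuta, Jun, Cryzl2 and Fkbp8, and those of Insl5 were Cyp2d12 (0.46), Anxa8, Thbs4, Ctse and Capn13. The first for Chgb was Hpd (0.28), for Tph1 Irak3 (0.18), for Sct Zfp518b (0.14) and for Cck Sh2d3c (0.11). No member was among the 5 nearest of another. Starting from Chga, Gcg ranked 225 by this measure, and starting from Pyy, Gcg ranked 418 and Chga 481.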

How the data were processed

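Per the labels' protocols, biotin-labelled RNA from the colons of 12 mice was run on Affymetrix arrays. The deposited table held 31693 probe sets, taken as log2 values; log base, direction, background correction and normalization were not given in the sources used here. No scanner files were used, so signal over background is unknown. Each probe set was centred (median 0 to within 5e-07). Of the probe sets 22586 had 1 gene symbol, 1756 several and 7351 none, and probe sets of 1 symbol were averaged per gene. Groups came from the genotype and treatment labels; replicate numbers only name mice, which the labels count as separate animals. One limma 3.58.1 model in R 4.3.3 (lmFit, eBayes) fitted the 4 groups, with Benjamini-Hochberg adjustment over 21314 genes and calls at 0.05; it was tested on simulated data. Members, lists and the naming rule were chosen with earlier results of these data known: all members, up to 4 called genes of a list or the 2 of smallest p where named, and the nearest profiles, passing over gene models. Genes outside that rule (Parp1, and the profiles after the first for Neurod1 and Sst) were named after their values were seen. Promoters came from RefSeq (GRCm38.p6).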

Additional observations from a re-analysis of the deposited data

Results flagged for a closer look

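A further probe set annotated to both Neurod1 and the neighbouring Cerkl was left out of the comparisons because its gene is ambiguous, and it carried a signal above the control mice. It was higher on DSS than on water in wild type by 0.77 ± 0.20 (log2, SE; limma adjusted p 0.0293 over 31693 probe sets), at 0.12, 0.64 and 0.39 against -0.53, -0.39 and -0.26. In Parp1-/- the difference was 0.52 (adjusted p 1.0). Between the genotypes on water it was 0.21 (adjusted p 0.423). The probe set of Neurod1 alone differed by -0.45 after DSS in wild type and by -0.81 on water, so the signs were opposite in both comparisons, including the one in which Neurod1 was called, and the direction of Neurod1 is not settled by these arrays.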

How the results depend on the processing

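Of 1010 alternative values for the 50 member differences, 62 turned sign, in 19 differences, none of them called. Chgb in wild type passed in 16 of 20 alternatives (0.96 to 1.95, adjusted p 0.00442 to 0.250) and on water in 18 of 20 (0.94 to 1.93, adjusted p 0.00119 to 0.288); Neurod1 on water passed in 16 of 20 (adjusted p 0.00453 to 0.40).

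Members called after DSS in wild type numbered 1, and 0 under quantile normalization, with only the arrays compared, at adjusted p under 0.01 and in 9 arrays without the 3 of high smooth muscle genes (chosen after seeing the data), 2 with array weights, and 1 to 2 when 1 array was left out. On water they numbered 2, then 1 under quantile normalization and at 0.01, 0 in the 9 arrays, and 1 to 2 with 1 array left out. Array weights called 2 members after DSS in Parp1-/- (Insl5 2.44, adjusted p 0.0133, and Cck), 1 between genotypes on DSS (Pyy 2.26, adjusted p 0.0373) and 1 for the difference of responses (Pyy 3.37, adjusted p 0.0182). Default weights did not converge and put 963.9 on wild-type DSS 2, so gene-by-gene weights were used, chosen after seeing the data.

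Genes called after DSS in wild type numbered 2781, and 232 under quantile normalization (94.0% higher, against 68.1% as deposited), 641 with only the arrays compared, 5980 with weights, 1025 at 0.01, 1024 in the 9 arrays and 1211 to 6865 with 1 array left out. In Parp1-/- the 2 became 85 (83.5% higher), 9, 1638, 1 and 0 in that order, 9 for single probe sets, 7 with trend and robust options, 13 in the 8 arrays that did not stand apart, and 1 to 22. On water the 6725 (56.7% higher) became 2219 under quantile normalization (79.9% higher), 2429 at 0.01, 147 in the 9 arrays and 2948 to 9384; equal array medians moved the median of all probe sets by 0.11 and the share higher to 71.4%. On DSS the 0 became 631 with weights and 0 to 2. The 542 of the difference became 0 under quantile normalization and in the 9 arrays, 133 with trend and robust options, 5463 with weights, 136 at 0.01 and 177 to 3178.

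Signs turned for Gcg after DSS in wild type with weights (-0.11) and with 1 array left out (-0.29 to 0.58), for Chga there (-0.42 to 1.04), and for Sst in the 9 arrays (0.40 for DSS in Parp1-/-, -0.80 on water, -0.0097 on DSS) and with 1 array left out (-0.76 to 0.31, -0.11 to 0.94 and -0.0097 to 1.0). The cause of these changes was not tested, also where an alternative leaves fewer arrays. A filter on dim probe sets could not be set, since centring removes brightness, and the 8 arrays hold no wild-type water mouse. No paired analysis was possible because the mouse numbers differ between groups. Array number and unknown signal over background limit precision: 3 mice a group.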
